A study of Mus musculus with 18 samples.

Results

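Interferon-stimulated genes are the genes that cells switch on when an interferon binds its receptor, and 52 of them were followed here by name in the RNA sequencing table of 6 mouse cell lines grown from malignant peripheral nerve sheath tumors (MPNST), a soft-tissue sarcoma of the nerve. The 52 were given as a list of gene names, of which 51 were found by symbol and *Ifit3b* by its identifier under an older symbol, out of 35275 genes in the table. The tumors were started in the sciatic nerve of wild-type 129 Sv/Jae mice with an adenovirus that carries Cas9 under a CMV promoter together with guide RNAs. In the *Nf1*/*p53* double knockout (dKO) the guides target *Nf1* and the gene for *p53*, and in the *Nf1*/*Cdkn2a* dKO they target *Nf1* and *Cdkn2a*, the locus of the tumor suppressors p16 and p19. Both genotypes therefore share the *Nf1* deletion, the virus and the strain, and neither received an interferon or any other treatment. There were 3 lines per genotype, each from a separate tumor and passaged in culture before sequencing, and 3 cultures per line, giving 18 libraries. The line, not the culture, was the unit of comparison, so the 3 cultures of each line were added up and each genotype has n = 3.

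Type I interferons bind the IFNAR1/IFNAR2 receptor, whose kinases JAK1 and TYK2 phosphorylate STAT proteins. The complex ISGF3, which holds STAT2 and IRF9, binds the interferon-stimulated response element (ISRE) in the promoters of its target genes. Interferon gamma acts through its own receptor, JAK1 and JAK2, and its target genes hold the gamma-activated site (GAS). The products degrade viral RNA, block viral entry and translation, or sense nucleic acids, and tumor cells can hold a part of this program switched on with no virus present.

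Libraries held 19560535 to 28312207 counts and lines 65206479 to 73065228. *Trp53*, the mouse gene for *p53*, was at 94.1, 67.5 and 58.7 CPM in the *Nf1*/*p53* lines against 247, 246 and 185 CPM in the *Nf1*/*Cdkn2a* lines, *Nf1* at 70.0, 33.5 and 27.7 CPM across the *Nf1*/*p53* lines, with 12.7, 38.3 and 16.2 CPM across the *Nf1*/*Cdkn2a* lines, and *Cdkn2a* at 363, 279 and 42.9 CPM in the *Nf1*/*p53* lines against 169, 392 and 285 CPM in the *Nf1*/*Cdkn2a* lines, with each set of values in the order of lines 1, 2 and 3, as everywhere below. *Trp53* was higher in every *Nf1*/*Cdkn2a* line (adjusted p = 0.0361), while the lines of the genotypes overlapped for *Nf1* and *Cdkn2a*, whose reads do not show whether a guide has cut. The mesenchymal markers, 6 genes with *Vim* and the type I collagens among them, summed to 6588 to 15935 CPM in the *Nf1*/*p53* lines and 8667 to 15828 CPM in the *Nf1*/*Cdkn2a* lines. The defining Schwann cell marker *Sox10* stayed at or under 0.0990 CPM in every line, and the 5 Schwann markers together summed to 2.36 to 10.3 CPM and 1.32 to 2.31 CPM in the respective genotypes.

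Sequence is shown first. The list was given by gene name, but the ISRE and GAS are elements of interferon target genes. Their shares among the members are therefore descriptions and not a test. The short form of the ISRE was searched as GAAANNGAAA on both strands and the short form of the GAS as TTCNNNGAA, which reads the same on both, in RefSeq promoter windows of GRCm38.p6 that run from 250 bases before to 50 bases after a gene's start. Windows were matched by symbol for 40 of the 52 genes. Some genes had more than 1 window, 49 windows in all, and a gene was counted if any of its windows held a core. At least 1 ISRE core lay in the windows of 20 of these 40 genes (50.0%), against 1079 of 27025 genes over the whole table of windows (3.99%). A GAS core lay in 10 of the 40 (25.0%), against 9.55% of all genes. An ISRE and a GAS match overlapped in 2 windows. Of 32 ISRE cores in the windows of the 40 genes, 28 lay before the start site. The stretches below are 60 bases each and read 5′ to 3′ along the strand of the gene, with every ISRE core in capitals. The first 6 belong to genes whose *Nf1*/*Cdkn2a* lines all lay below the *Nf1*/*p53* lines, the next pair to ISRE-bearing genes that did not (*Irgm1* and *Stat2*), and the last pair to the genes called by the test (*Oasl2* and *Samd9l*), whose windows hold no ISRE core in these letters and for which the bases just before the start are given.
*Isg15*, chr4:156200850-156200909, minus strand: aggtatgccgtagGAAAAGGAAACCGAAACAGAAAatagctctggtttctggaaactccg
*Ifit1*, chr19:34640779-34640838, plus strand: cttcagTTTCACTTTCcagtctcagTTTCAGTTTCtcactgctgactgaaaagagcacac
*Ifit3*, chr19:34583382-34583441, plus strand: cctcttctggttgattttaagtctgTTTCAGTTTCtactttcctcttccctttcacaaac
*Rsad2*, chr12:26456538-26456597, minus strand: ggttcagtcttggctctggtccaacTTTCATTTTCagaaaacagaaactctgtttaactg
*Gbp2*, chr3:142620579-142620638, plus strand: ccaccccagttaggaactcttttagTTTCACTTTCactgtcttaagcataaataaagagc
*Gbp3*, chr3:142559980-142560039, plus strand: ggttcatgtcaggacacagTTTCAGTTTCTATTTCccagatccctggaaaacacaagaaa
*Irgm1*, chr11:48871410-48871469, minus strand: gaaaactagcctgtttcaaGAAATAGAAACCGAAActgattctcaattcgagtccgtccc
*Stat2*, chr10:128270251-128270310, plus strand: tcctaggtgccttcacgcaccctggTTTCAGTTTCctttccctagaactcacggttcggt
*Oasl2*, chr5:114896874-114896933, plus strand: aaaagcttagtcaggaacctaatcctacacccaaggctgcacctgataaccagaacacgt
*Samd9l*, chr6:3399572-3399631, minus strand: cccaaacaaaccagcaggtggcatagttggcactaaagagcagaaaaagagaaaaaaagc
In *Isg15*, *Gbp3* and *Irgm1* neighboring cores share bases, so that their capitals run together, whereas *Ifit1* holds a pair of separate cores on the other strand. *Gbp3* also has a further window, not shown, that holds no ISRE core. *Irgm1*, whose *Nf1*/*Cdkn2a* lines all lay above the *Nf1*/*p53* lines, shows that the same letters stand before genes on either side of the comparison. *Stat2*, with its core farthest from the start of the genes shown, had lines that overlapped between the genotypes. No match in a window says only that these letters are not in that stretch of promoter. The genes shown were picked with their values in these data known.

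Most of the listed interferon-stimulated genes were lower in the *Nf1*/*Cdkn2a* lines, although few passed the test one by one. The list was chosen with earlier results of these data known. Its shares beside those of all genes, here and below, are therefore descriptions and not a test. Of the 49 members with enough counts to test, 40 had a log2 fold change below 0 and 9 above, with positive values meaning higher in the *Nf1*/*Cdkn2a* dKO. The median over the 49 was -1.45, against -0.02 over all 15207 genes tested, of which 51.8% were below 0. Of the 49, 10 members (20.4%) reached the minimum of the count filter in all 3 *Nf1*/*p53* lines and not in all 3 *Nf1*/*Cdkn2a* lines (*Trim30a*, *Oas1a*, *Oas1b*, *Oas3*, *Mx1*, *Mx2*, *Rsad2*, *Cmpk2*, *Igtp* and *Iigp1*), against 6.65% of all genes, and none passed through the *Nf1*/*Cdkn2a* lines alone. These 10 were tested through the genotype in which they are high, so each count over the 49 is a description. Without genes that passed through one genotype alone, a choice made after seeing the data, 30 of 39 members (76.9%) were below 0, against 50.1% of 13698 genes. The median of the 39 was -1.09, and 23 of them (59.0%) were at least 2-fold lower by the fitted value, against 8.23% of these genes. Over all 49 that count was 33, against 12.1% of all genes tested. Levels are given in CPM, the counts of a gene relative to the TMM-scaled total of its library, and the test is the quasi-likelihood F test of edgeR, with p-values adjusted by Benjamini-Hochberg over all genes tested and called at an adjusted p under 0.05. *Oasl2* and *Samd9l* were called lower, 2 of 49 members (4.08%), where 1.16% of all genes tested were called lower and 1.8% in either direction. No member was called higher, against 0.638% of all genes, while *Ifi47* and *Irgm1* had an unadjusted p under 0.05 in that direction. A further 19 members, *Ifi47* among them, had an adjusted p from 0.05 to 0.1. An unadjusted p under 0.05 with a lower level was found for 30 members (61.2%), against 12.5% of all genes, and for 2 with a higher level, against 9.81%. Among the 39 members that did not pass through one genotype alone, the lower count was 21 (53.8%), against 10.6% of the 13698 genes.

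The lines themselves separated more often than the calls did. In 31 of the 49 members (63.3%) every *Nf1*/*Cdkn2a* line was below every *Nf1*/*p53* line, against 16.6% of all genes tested, and in 2 members (4.08%) every one was above, against 14.8%. In 16 members the lines overlapped. Among the 39 members that did not pass through one genotype alone, 22 (56.4%) had every *Nf1*/*Cdkn2a* line below, against 14.5% of such genes. The 9 cultures of each genotype did not overlap for 19 of the 49 members in the lower direction, against 7.21% of all genes tested, and for 1 in the higher direction, against 6.34%. For the same 39 members the lower count was 14 (35.9%), against 6.48% of such genes. DESeq2 on the same 6 lines called 29 members lower and 2 higher of the 50 to which it gave an adjusted p, where it called 7.21% of all genes lower and 4.74% higher. With the line as a random effect over the 18 cultures, limma-voom called 19 lower and 2 higher of 42, against 7.84% and 8.73%. DESeq2 on the 18 cultures as separate samples called 37 lower and 5 higher of 51, against 22.3% and 16.9%, a fit in which cultures of one line count as independent. The count of 2 from edgeR went to 0 when any 1 of the 6 lines was left out, and calls over all genes fell in the same fits from 274 to between 0 and 172.

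**Figure D1:**
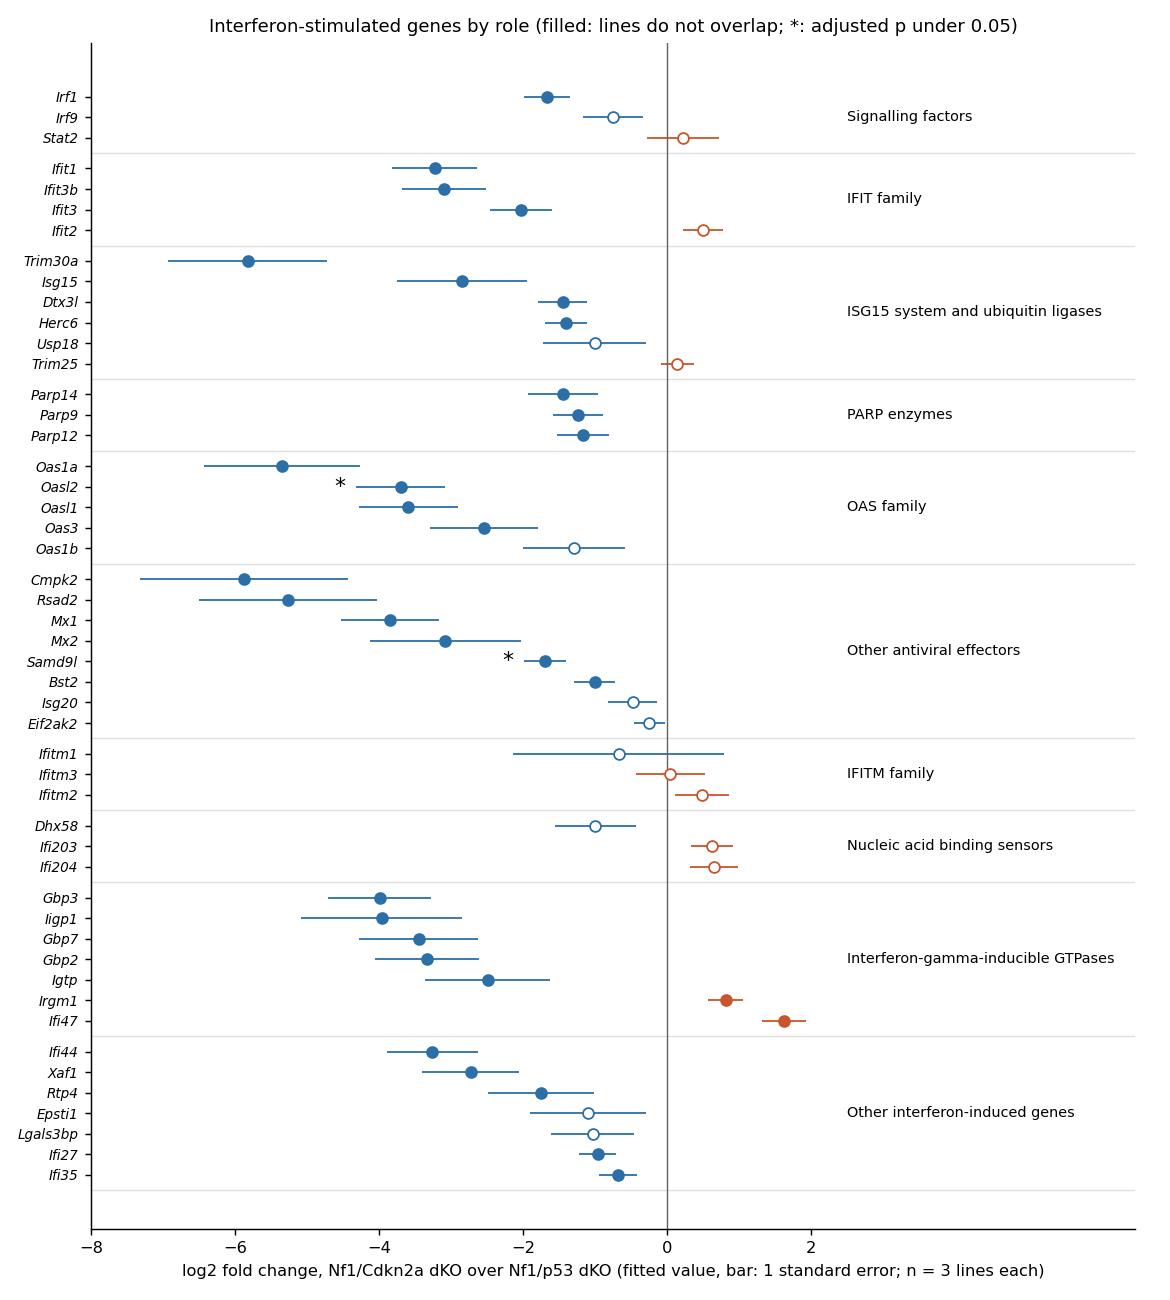
Fitted log2 fold change of each of the 49 members tested, *Nf1*/*Cdkn2a* dKO over *Nf1*/*p53* dKO, grouped by role, with bars of 1 standard error from 3 lines per genotype. Filled points mark the 33 genes whose lines do not overlap and stars the 2 with an adjusted p under 0.05. Blue points (40 genes) lie below 0, and the 9 orange points above 0 include *Ifi47* and *Irgm1* as the only filled ones.

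**Figure D2:**
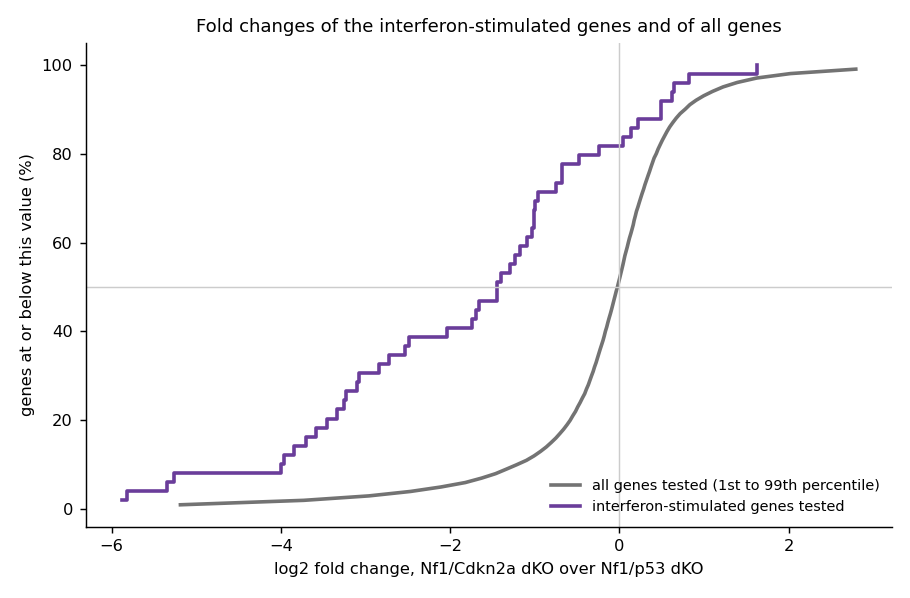
Share of genes (vertical axis, percent) at or below each log2 fold change (horizontal axis), for the 49 interferon-stimulated genes tested and for all 15207 genes tested. The member curve lies to the left, with a median of -1.45 against -0.02, and includes the 10 members that passed the count filter through the *Nf1*/*p53* lines alone.

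Signalling came first in the order of roles. *Stat2* and *Irf9* encode parts of ISGF3 and *Irf1* a transcription factor induced by interferon gamma. *Irf1* was at 32.0, 29.9 and 58.9 CPM across the *Nf1*/*p53* lines, with 10.8, 11.4 and 15.9 CPM across the *Nf1*/*Cdkn2a* lines, so its lines did not overlap, a 3.17-fold lower level that missed the threshold (log2 fold change -1.66 ± 0.32, adjusted p = 0.0554). *Irf9* was at 11.3, 13.1 and 19.4 CPM in the *Nf1*/*p53* lines against 5.41, 6.81 and 13.9 CPM in the *Nf1*/*Cdkn2a* lines, where line 3 of the *Nf1*/*Cdkn2a* dKO lay within the range of the *Nf1*/*p53* lines (adjusted p = 0.338). *Stat2* went the other way from both, at 21.2, 11.3 and 13.1 CPM across the *Nf1*/*p53* lines, with 9.42, 12.2 and 31.4 CPM across the *Nf1*/*Cdkn2a* lines (log2 fold change 0.22 ± 0.50, adjusted p = 0.823). Its positive sign came from line 3, which was the highest of all 6 lines, and without that line the log2 fold change was -0.48. Of these 3 genes 2 were lower by the fitted value and 1 higher, and none was called.

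The IFIT genes lie side by side on chromosome 19 and encode RNA-binding proteins with tetratricopeptide repeats that block translation of viral RNA. Their median log2 fold change was -2.57. *Ifit1* (chr19:34640871-34650009 in GRCm38, plus strand) was at 33.3, 11.0 and 19.0 CPM in the *Nf1*/*p53* lines against 1.17, 1.95 and 3.63 CPM in the *Nf1*/*Cdkn2a* lines, 9.38-fold lower (log2 fold change -3.23 ± 0.59, adjusted p = 0.0521). Every culture of the *Nf1*/*Cdkn2a* dKO, from 0.884 to 4.86 CPM, lay under every culture of the *Nf1*/*p53* dKO, from 8.23 to 35.7 CPM. *Ifit3* and *Ifit3b*, closely similar copies between which reads may be shared, had log2 fold changes of -2.03 and -3.10 (adjusted p = 0.0653 and 0.0529). *Ifit2*, the neighbor at chr19:34550694-34576419, did not follow them, at 30.6, 19.3 and 29.7 CPM across the *Nf1*/*p53* lines, with 49.1, 28.1 and 35.0 CPM across the *Nf1*/*Cdkn2a* lines (log2 fold change 0.49 ± 0.28, adjusted p = 0.341). Its lines overlapped, and the lowest was line 2 of the *Nf1*/*p53* dKO. Whether *Ifit2* differs in response from the other IFIT genes was not tested.

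Among the ISG15 system and ubiquitin ligases, 5 of 6 were lower by the fitted value and none was called. *Isg15* encodes a ubiquitin-like protein that is attached to other proteins, *Herc6* a ligase for it, and *Usp18* the protease that removes it and also damps IFNAR signalling. *Isg15* was at 21.8, 5.94 and 18.4 CPM in the *Nf1*/*p53* lines against 0.481, 1.31 and 4.63 CPM in the *Nf1*/*Cdkn2a* lines (log2 fold change -2.84 ± 0.90, adjusted p = 0.137). The lines did not overlap but spread widely within each genotype. *Herc6* varied little within a genotype, at 6.25, 5.77 and 8.86 CPM across the *Nf1*/*p53* lines, with 2.42, 2.75 and 2.72 CPM across the *Nf1*/*Cdkn2a* lines, 2.64-fold lower in the *Nf1*/*Cdkn2a* dKO (adjusted p = 0.0617). *Usp18* was at 2.85, 2.11 and 2.88 CPM in the *Nf1*/*p53* lines against 0.465, 0.620 and 2.82 CPM in the *Nf1*/*Cdkn2a* lines, where line 3 of the *Nf1*/*Cdkn2a* dKO sat among the *Nf1*/*p53* lines and the other pair did not (adjusted p = 0.452). *Dtx3l*, a ubiquitin ligase that works with PARP9, came to -1.45 on the log2 scale (adjusted p = 0.0824) with no overlap of lines. *Trim25*, a ligase that activates the RNA sensor RIG-I, was at 38.2, 52.4 and 70.8 CPM across the *Nf1*/*p53* lines, with 57.3, 58.6 and 61.9 CPM across the *Nf1*/*Cdkn2a* lines, with no separation of the lines (log2 fold change 0.14 ± 0.23, adjusted p = 0.754) and a sign that turned without line 1 of the *Nf1*/*p53* dKO.

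*Trim30a*, a mouse tripartite-motif gene, was one of 3 tested members with 3 or fewer counts in every *Nf1*/*Cdkn2a* library, with *Oas1a* and *Cmpk2*. It held 341 counts over the 9 *Nf1*/*p53* libraries and 5 over the 9 *Nf1*/*Cdkn2a* libraries. By line it was at 0.748, 2.93 and 1.05 CPM in the *Nf1*/*p53* lines against 0.0642, 0 and 0.0156 CPM in the *Nf1*/*Cdkn2a* lines. With every *Nf1*/*Cdkn2a* library set at 3 counts, the most that any of them held, it was at least 11.4-fold lower in the *Nf1*/*Cdkn2a* dKO. This bound, like those of *Oas1a* and *Cmpk2*, compares genotype means, and the lowest *Nf1*/*p53* line lies nearer the floor. The ratio of the summed counts, scaled to library size, was 61.0 (95% exact interval 25.9 to 189), an interval that covers counting error only. The fitted log2 fold changes of such genes depend on the prior count and are drawn without being read as a size. At their bounds these genes still lie below the list's median, which is therefore -1.45 either way.

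The PARP enzymes, which attach ADP-ribose to proteins, were all lower by the fitted value, without a call. *Parp12* was at 24.2, 19.63 and 42.5 CPM across the *Nf1*/*p53* lines, with 9.06, 12.7 and 16.6 CPM across the *Nf1*/*Cdkn2a* lines, the smallest difference of the group (log2 fold change -1.17 ± 0.36, adjusted p = 0.131). *Parp14* was at 6.44, 7.45 and 15.3 CPM in the *Nf1*/*p53* lines against 2.76, 2.44 and 5.49 CPM in the *Nf1*/*Cdkn2a* lines (log2 fold change -1.45 ± 0.49, adjusted p = 0.152), the largest. All 3 genes had lines that did not overlap, and *Parp9* lay between the other pair at -1.23. *Dtx3l* and *Parp9* are neighbors on chromosome 16 whose annotated ends overlap by 682 bases on opposite strands, so their reads cannot be told apart there if the counting ignored strand.

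The OAS family held the larger of the called differences. OAS enzymes make the second messenger that activates RNase L, which degrades RNA, and the OAS-like proteins *Oasl1* and *Oasl2* also carry ubiquitin-like domains. *Oasl2* (chr5:114896936-114912234, plus strand) was at 15.2, 6.92 and 15.1 CPM across the *Nf1*/*p53* lines, with 0.738, 0.447 and 1.67 CPM across the *Nf1*/*Cdkn2a* lines, or 12.4 ± 4.75 CPM against 0.953 ± 0.641 CPM by genotype (mean ± SD, n = 3 lines). It fell 13.0-fold (log2 fold change -3.70 ± 0.62, adjusted p = 0.0465). Its 9 *Nf1*/*p53* cultures ranged from 4.48 to 16.7 CPM (median 14.6) and its 9 *Nf1*/*Cdkn2a* cultures from 0.348 to 2.56 CPM (median 0.639), with no overlap. Leaving out 1 line at a time put the adjusted p between 0.0703 and 0.151 and the log2 fold change between -4.38 and -3.35. *Oasl1*, next to it on chromosome 5, was at 23.8, 5.73 and 18.6 CPM in the *Nf1*/*p53* lines against 0.642, 2.09 and 1.25 CPM in the *Nf1*/*Cdkn2a* lines, a difference of like size (log2 fold change -3.59 ± 0.68, adjusted p = 0.0540).

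The OAS genes proper were scarce in all lines. *Oas1a* held 241 counts in the *Nf1*/*p53* libraries and 5 in the *Nf1*/*Cdkn2a* libraries, and was at least 8.07-fold lower at 3 counts per library (ratio of counts 43.1 (95% exact interval 18.2 to 134)). By line *Oas1a* was at 0.477, 2.26 and 0.609 CPM across the *Nf1*/*p53* lines, with 0.0481, 0.0288 and 0 CPM across the *Nf1*/*Cdkn2a* lines. *Oas1b* was at 0.696, 0.410 and 1.45 CPM in the *Nf1*/*p53* lines against 0.144, 0.288 and 0.610 CPM in the *Nf1*/*Cdkn2a* lines, with lines that overlapped and the smallest difference of the family (log2 fold change -1.29 ± 0.71, adjusted p = 0.330). *Oas3* was between the others at -2.54 (adjusted p = 0.118). *Oas1g* held 18 and 0 counts and *Oas2* 19 and 6 counts in the respective genotypes, which is under the floor on average in both, so neither was tested and no fold is given. The Oas1 copies are close enough in sequence for reads to be split between them.

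Of the other antiviral effectors, all 8 tested were lower by the fitted value and *Samd9l* was called. *Samd9l* encodes a restriction factor against poxviruses. The gene (chr6:3372257-3399572, minus strand) was at 29.8, 28.8 and 21.6 CPM across the *Nf1*/*p53* lines, with 6.34, 6.91 and 11.5 CPM across the *Nf1*/*Cdkn2a* lines, or 26.7 ± 4.46 CPM against 8.26 ± 2.85 CPM by genotype (mean ± SD, n = 3 lines). It fell 3.24-fold (log2 fold change -1.70 ± 0.30, adjusted p = 0.0499), just inside the threshold, and its adjusted p lay between 0.0708 and 0.151 with 1 line left out. Its cultures kept apart by genotype, with 9 *Nf1*/*p53* cultures from 19.0 to 31.7 CPM and 9 *Nf1*/*Cdkn2a* cultures from 5.34 to 13.1 CPM.

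*Rsad2* encodes viperin, which makes a chain-terminating nucleotide from CTP, and its neighbor on chromosome 12, *Cmpk2*, a mitochondrial nucleotide kinase. *Rsad2* was at 2.60, 0.467 and 4.04 CPM in the *Nf1*/*p53* lines against 0, 0.115 and 0.0626 CPM in the *Nf1*/*Cdkn2a* lines (adjusted p = 0.0804). *Cmpk2* was at 2.05, 0.636 and 4.00 CPM across the *Nf1*/*p53* lines, with 0, 0 and 0.109 CPM across the *Nf1*/*Cdkn2a* lines, a total of 7 counts in the latter genotype that all came from line 3, and was at least 16.1-fold lower at 3 counts per library (ratio of counts 63.0 (95% exact interval 30.4 to 158)). In both genes line 2 was the lowest of the *Nf1*/*p53* lines. The dynamin-like GTPases *Mx1* and *Mx2* were at 0.839 and 1.12 CPM on average in the *Nf1*/*p53* lines and at 0.0568 and 0.130 CPM in the *Nf1*/*Cdkn2a* lines (adjusted p = 0.0508 and 0.157).

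The smallest differences among the effectors were those of *Bst2*, *Isg20* and *Eif2ak2*. *Bst2*, or tetherin, which holds budding virus at the cell surface, was at 26.1, 21.9 and 34.5 CPM in the *Nf1*/*p53* lines against 11.4, 11.3 and 18.3 CPM in the *Nf1*/*Cdkn2a* lines (log2 fold change -1.01 ± 0.28, adjusted p = 0.109), and its lines did not overlap. The lines did overlap for *Eif2ak2*, the kinase PKR, which stops translation when it binds double-stranded RNA. *Eif2ak2* was at 52.0, 37.8 and 33.3 CPM across the *Nf1*/*p53* lines, with 33.7, 30.3 and 39.7 CPM across the *Nf1*/*Cdkn2a* lines (log2 fold change -0.25 ± 0.21, adjusted p = 0.536), the smallest difference of the group. *Isg20*, an exonuclease, had a log2 fold change of -0.48 with overlapping lines. *Trex1*, the DNA exonuclease whose loss raises interferon in cells, was listed at 0 counts in all 18 libraries. Its annotated span of 1802 bases lies wholly within *Atrip* on the same strand, and *Atrip* held 3809 and 3861 counts in the 2 genotypes, and the part of this overlap in the count of 0 was not tested.

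None of the IFITM genes had lines that separated by genotype. They encode small membrane proteins that keep viruses from fusing with the cell, and per length *Ifitm3* was the most abundant of the 52 genes, at 656 CPM per kb of exon on average in the *Nf1*/*p53* lines and 678 in the others. *Ifitm2* followed at 364 and 511 CPM per kb. *Ifitm3* was at 514, 235 and 586 CPM in the *Nf1*/*p53* lines against 215, 535 and 628 CPM in the *Nf1*/*Cdkn2a* lines, where the range of the *Nf1*/*Cdkn2a* lines covered that of the *Nf1*/*p53* lines (log2 fold change 0.05 ± 0.48, adjusted p = 0.966), and its sign turned with upper-quartile factors and with raw totals. *Ifitm2* was at 261, 162 and 292 CPM across the *Nf1*/*p53* lines, with 189, 336 and 479 CPM across the *Nf1*/*Cdkn2a* lines (log2 fold change 0.49 ± 0.38, adjusted p = 0.481). *Ifitm1* varied widely between lines of one genotype, at 13.1, 1.16 and 91.8 CPM in the *Nf1*/*p53* lines against 2.92, 14.7 and 48.9 CPM in the *Nf1*/*Cdkn2a* lines (log2 fold change -0.67 ± 1.47, adjusted p = 0.815). Its highest and lowest values were both in the *Nf1*/*p53* dKO, in lines 3 and 2, and without line 3 its log2 fold change was 1.64. Similar sequence within this family may also share reads.

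Of the 3 nucleic acid binding sensors tested, 2 were higher by the fitted value and 1 lower, and none was called. *Ifi203* and *Ifi204*, members of the DNA-binding p200 family clustered on chromosome 1, were at 28.6, 24.6 and 20.5 CPM across the *Nf1*/*p53* lines, with 47.1, 23.3 and 43.0 CPM across the *Nf1*/*Cdkn2a* lines and at 31.2, 25.9 and 17.8 CPM in the *Nf1*/*p53* lines against 35.7, 25.9 and 56.1 CPM in the *Nf1*/*Cdkn2a* lines respectively. Their log2 fold changes were 0.62 ± 0.29 and 0.65 ± 0.34 (adjusted p = 0.269 and 0.307), and the lines of the genotypes overlapped for both. *Dhx58*, which encodes the RIG-I-like protein LGP2, was at 7.58, 2.04 and 4.97 CPM across the *Nf1*/*p53* lines, with 2.09, 1.56 and 3.68 CPM across the *Nf1*/*Cdkn2a* lines (log2 fold change -0.99 ± 0.57, adjusted p = 0.349). Line 2 was the lowest *Nf1*/*p53* line and lay inside the range of the *Nf1*/*Cdkn2a* lines. *Ifi203* overlaps *Mndal* of the same family over 22085 bases on the same strand, so the counts of this cluster are uncertain.

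The interferon-gamma-inducible GTPases split into genes far below and genes above, with no overlap of lines in any of the 7. These proteins attack the vacuoles that shelter intracellular pathogens. *Gbp3* (chr3:142560026-142573209) was at 13.6, 7.48 and 28.2 CPM in the *Nf1*/*p53* lines against 0.497, 0.793 and 1.80 CPM in the *Nf1*/*Cdkn2a* lines, 15.9-fold lower (log2 fold change -3.99 ± 0.71, adjusted p = 0.0508). Its neighbors *Gbp2* and *Gbp7* had log2 fold changes of -3.33 and -3.45 (adjusted p = 0.0681 and 0.0840), and in all 3 genes line 3 was the highest *Nf1*/*p53* line and also the highest *Nf1*/*Cdkn2a* line. *Igtp*, a regulatory member of the immunity-related GTPases, and *Iigp1*, an effector that loads onto vacuoles, were at -2.49 and -3.96, the latter on 233 and 13 counts. *Igtp* shares 7974 bases with *Irgm2* on the same strand.

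*Ifi47* and *Irgm1* were the members whose *Nf1*/*Cdkn2a* lines all lay above the *Nf1*/*p53* lines. *Irgm1* encodes the regulatory GTPase that keeps such effectors inactive on host membranes, and *Ifi47* is a further member of that family. *Ifi47* (chr11:49076587-49096974) was at 3.22, 2.83 and 2.95 CPM across the *Nf1*/*p53* lines, with 6.64, 8.99 and 12.2 CPM across the *Nf1*/*Cdkn2a* lines, 3.09-fold higher (log2 fold change 1.63 ± 0.31, adjusted p = 0.0532). Its *Nf1*/*p53* lines were nearly equal, at 3.00 ± 0.202 CPM (mean ± SD, n = 3 lines), and its 9 cultures of each genotype did not overlap. *Irgm1* (chr11:48861968-48871683) was at 19.9, 19.2 and 16.1 CPM in the *Nf1*/*p53* lines against 22.6, 38.8 and 35.9 CPM in the *Nf1*/*Cdkn2a* lines, 1.76-fold higher (log2 fold change 0.82 ± 0.24, adjusted p = 0.120). Both kept their sign with any 1 line left out. The whole of *Ifi47* lies in the span of *Olfr56*, which held 5 and 16 counts in the respective genotypes.

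The other interferon-induced genes were all lower by the fitted value, with 5 of 7 whose lines did not overlap and none called. *Ifi44*, of unsettled function, was at 4.40, 3.66 and 4.29 CPM across the *Nf1*/*p53* lines, with 0.225, 0.216 and 0.845 CPM across the *Nf1*/*Cdkn2a* lines, the largest difference of the group (log2 fold change -3.26 ± 0.64, adjusted p = 0.0558). *Xaf1*, a pro-apoptotic partner of XIAP, was at 42.7, 27.1 and 62.9 CPM in the *Nf1*/*p53* lines against 2.84, 3.75 and 13.5 CPM in the *Nf1*/*Cdkn2a* lines (log2 fold change -2.73 ± 0.67, adjusted p = 0.0871). In *Xaf1* line 3 was the highest of both genotypes and the next *Nf1*/*Cdkn2a* line was under 4 CPM. *Ifi35* was at 11.6, 9.52 and 14.0 CPM across the *Nf1*/*p53* lines, with 6.69, 6.29 and 9.02 CPM across the *Nf1*/*Cdkn2a* lines, the smallest difference (log2 fold change -0.68 ± 0.26, adjusted p = 0.199). *Ifi27*, *Rtp4*, *Epsti1* and *Lgals3bp* had log2 fold changes from -1.75 (*Rtp4*) to -0.96 (*Ifi27*). *Rtp4* overlaps the abundant gene *Masp1* by 525 bases on the opposite strand.

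**Figure D3:**
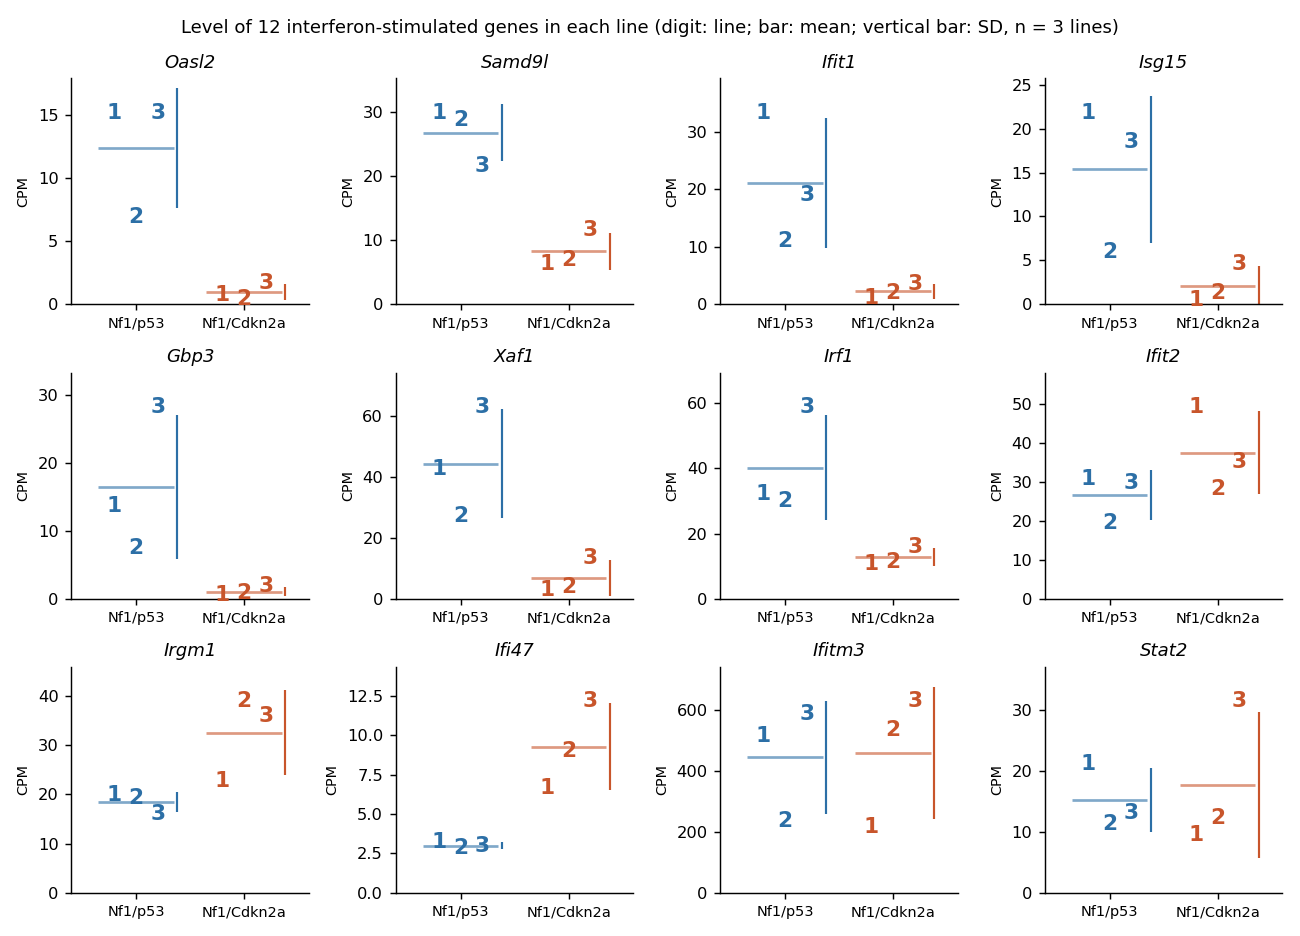
Level in CPM (vertical axes from 0) of 12 members in each line, with the digit naming the line, a horizontal bar for the mean and a vertical bar for the SD of 3 lines. The upper rows show members from *Oasl2* to *Irf1* with every *Nf1*/*Cdkn2a* line below every *Nf1*/*p53* line, and the panels of *Irgm1* and *Ifi47* show the reverse. *Ifit2*, *Ifitm3* and *Stat2* overlap.

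The lines of one genotype did not carry these genes equally. Line 2 was the lowest *Nf1*/*p53* line for 37 of the 49 members (75.5%), against 31.6% of all genes tested, and line 3 the highest *Nf1*/*Cdkn2a* line for 36 members (73.5%), against 38.5%. With each member set to its own mean over the 6 lines on the log2(CPM + 0.1) scale, the median member was at 0.74, 0.39 and 1.16 in *Nf1*/*p53* lines 1, 2 and 3 and at -1.07, -0.93 and -0.14 in *Nf1*/*Cdkn2a* lines 1, 2 and 3. The same median over all genes tested was between -0.00196 and 0.0277 in every line. Over the 3 cultures of a line, each member set to its mean over the 18 cultures, the median member ranged most widely in *Nf1*/*p53* line 2, from 0.07 to 0.61, and in *Nf1*/*Cdkn2a* line 3, from -0.40 to 0.12, so cultures of these lines overlapped across genotypes by this measure. In the other lines it ranged from 0.67 to 1.15 over the *Nf1*/*p53* cultures and from -1.23 to -0.75 over the *Nf1*/*Cdkn2a* cultures.

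By this median, line 3 of the *Nf1*/*Cdkn2a* dKO lay between the other lines of its genotype and the *Nf1*/*p53* lines. The median member was 0.88 higher there, on the log2(CPM + 0.1) scale, than the mean of lines 1 and 2, against 0.02 over all genes, and 19 members (38.8%) were at least 2-fold higher, against 7.75% of all genes. The widest gaps were in *Ifitm1* (2.87), *Isg15* (2.38), *Rtp4* (2.23), *Usp18* (2.19) and *Xaf1* (2.01). Without this line the median log2 fold change of the members was -1.96, in place of -1.45.

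**Figure D4:**
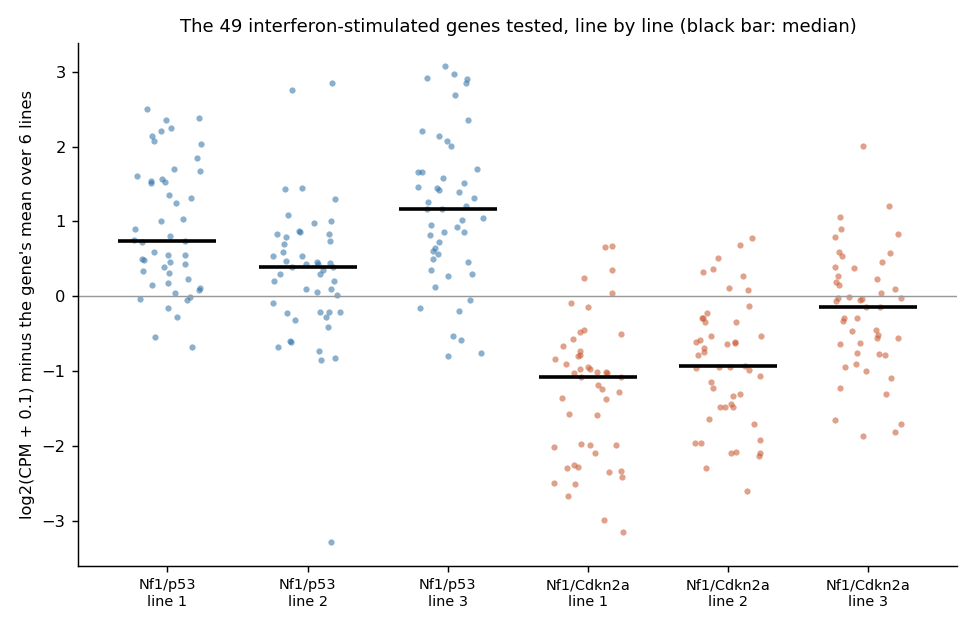
Each of the 49 members tested, 1 point per line, as log2(CPM + 0.1) minus the mean of that gene over the 6 lines, with a black bar at the median. The medians run from 0.39 to 1.16 in the *Nf1*/*p53* lines and from -1.07 to -0.14 in the *Nf1*/*Cdkn2a* lines, where line 3 is the highest.

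Interferon messages were scarce in every line. None of the 21 interferon ligand genes had enough counts to test, 12 had no count in any library, and the most that any one of them reached in a library was 6 counts. Summed over the 21 ligands, the lines of the *Nf1*/*p53* dKO held 7, 15 and 8 counts and those of the *Nf1*/*Cdkn2a* dKO 12, 5 and 19. A count of 0 in a library allows up to 3 counts, so interferon messages were at or near the limit of detection in every line, which does not show that they are absent.

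Receptors were present in both genotypes. *Ifnar1* was at 60.2, 68.4 and 45.0 CPM in the *Nf1*/*p53* lines against 77.2, 74.0 and 63.0 CPM in the *Nf1*/*Cdkn2a* lines and *Ifnar2* at 19.0, 16.4 and 12.2 CPM across the *Nf1*/*p53* lines, with 17.0, 17.9 and 20.99 CPM across the *Nf1*/*Cdkn2a* lines, with log2 fold changes of 0.30 ± 0.19 and 0.23 ± 0.23 (adjusted p = 0.391 and 0.585). The interferon gamma receptor chains were at 37.3, 53.8 and 48.4 CPM in the *Nf1*/*p53* lines against 36.8, 37.4 and 67.5 CPM in the *Nf1*/*Cdkn2a* lines for *Ifngr1* and at 76.6, 93.2 and 28.5 CPM across the *Nf1*/*p53* lines, with 69.7, 63.6 and 78.8 CPM across the *Nf1*/*Cdkn2a* lines for *Ifngr2* (adjusted p = 0.973 and 0.907). *Il10rb*, the chain that type III interferons share, was at 11.9, 12.2 and 7.04 CPM in the *Nf1*/*p53* lines against 9.13, 6.88 and 10.5 CPM in the *Nf1*/*Cdkn2a* lines, and *Ifnlr1*, their specific chain, reached at most 0.109 CPM. For all 5 receptor genes tested the lines of the genotypes overlapped, and none was called.

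Among the kinases and STATs, *Jak2* was at 69.5, 68.8 and 55.2 CPM across the *Nf1*/*p53* lines, with 136, 96.1 and 191 CPM across the *Nf1*/*Cdkn2a* lines, with every *Nf1*/*Cdkn2a* line above (log2 fold change 1.13 ± 0.26, adjusted p = 0.0796). *Irf7*, the inducible regulator that amplifies interferon production, was at 6.79, 3.17 and 7.28 CPM in the *Nf1*/*p53* lines against 0.866, 0.822 and 4.08 CPM in the *Nf1*/*Cdkn2a* lines (log2 fold change -1.58 ± 0.74, adjusted p = 0.266), the lowest fold change among the pathway genes outside the list. Line 3 of the *Nf1*/*Cdkn2a* dKO lay above line 2 of the *Nf1*/*p53* dKO here, and the other *Nf1*/*Cdkn2a* lines were under 1 CPM. The other 3 interferon regulatory factors tested went the other way, with every *Nf1*/*Cdkn2a* line above every *Nf1*/*p53* line and none called. Lines lay apart in that direction for 14.8% of all genes tested. *Irf8*, a factor of myeloid cells, was at 0.180, 0.198 and 0.152 CPM across the *Nf1*/*p53* lines, with 0.754, 3.59 and 0.203 CPM across the *Nf1*/*Cdkn2a* lines (log2 fold change 3.09 ± 1.03, adjusted p = 0.151), and the highest was line 2 of the *Nf1*/*Cdkn2a* dKO. The *Irf8* lines were apart only by 0.203 against 0.198 CPM, near the floor of 3 counts per library, and its cultures overlapped. *Irf3*, which switches on interferon genes after viral sensing, was at 21.3, 20.2 and 18.1 CPM in the *Nf1*/*p53* lines against 25.1, 32.2 and 28.9 CPM in the *Nf1*/*Cdkn2a* lines (log2 fold change 0.53 ± 0.17, adjusted p = 0.137). *Irf2*, a repressor of many interferon targets, differed least of them (log2 fold change 0.32 ± 0.15, adjusted p = 0.279). Of the 18 pathway genes outside the members that could be tested, of 40 listed, 5 were lower and 13 higher by the fitted value, with a median log2 fold change of 0.12. An unadjusted p under 0.05 was found for 4 of them, against 22.4% of all genes tested, and none was called, against 1.8%, so these shares are near the background. The brakes on the pathway (*Socs1*, *Socs3*, *Ptpn2*, *Ptpn11* and *Pias1*) ranged from -0.51 for *Ptpn2* to 0.15 for *Ptpn11*.

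**Figure D5:**
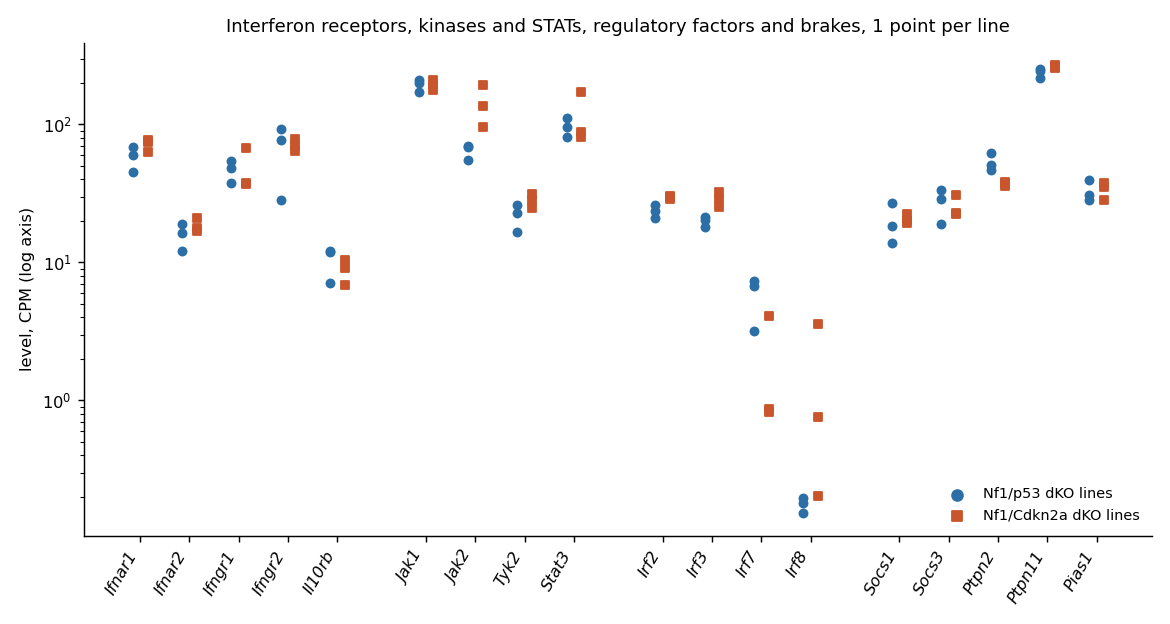
Level in CPM (log axis) of the 18 interferon pathway genes outside the list that were tested, 1 point per line, with circles for the *Nf1*/*p53* lines and squares for the *Nf1*/*Cdkn2a* lines. Receptors overlap between genotypes, *Jak2* is above in all *Nf1*/*Cdkn2a* lines, and of the regulatory factors *Irf7* is lower by its mean while *Irf2*, *Irf3* and *Irf8* are above in all *Nf1*/*Cdkn2a* lines. For *Irf8* the nearest lines are at 0.203 and 0.198 CPM, near the floor.

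Cells of the immune system carry much interferon-induced RNA, so their markers were read in the same lines. The 9 leukocyte markers summed to 3.97 to 7.82 CPM in the *Nf1*/*p53* lines and 6.72 to 8.38 CPM in the *Nf1*/*Cdkn2a* lines, most of it from *Cd68* and *Csf1r*. These went opposite ways, with log2 fold changes of 0.92 for *Cd68* and -0.76 for *Csf1r* (adjusted p = 0.243 and 0.527). *Csf1r* was at 2.98, 3.17 and 1.48 CPM in the *Nf1*/*p53* lines against 0.866, 0.721 and 2.92 CPM in the *Nf1*/*Cdkn2a* lines. Of the 4 leukocyte markers tested, 2 were lower and 2 higher, all with overlapping lines and none called. *Ptprc*, the pan-leukocyte marker CD45, was at 0.193, 0.156 and 0.194 CPM across the *Nf1*/*p53* lines, with 0.433, 0.144 and 0.563 CPM across the *Nf1*/*Cdkn2a* lines, and *Adgre1*, *Tyrobp* and *Cd3e* were at or under 0.0424 CPM in every line. *Siglech*, the marker of plasmacytoid dendritic cells, had no count, while *Tcf4*, which such cells use but mesenchymal cells also express, was at 129 to 249 CPM. The 5 endothelial markers summed to 1.35 to 2.09 CPM and 0.704 to 2.13 CPM in the respective genotypes. Within that sum *Tek*, the endothelial angiopoietin receptor, was called lower in the *Nf1*/*Cdkn2a* dKO, at 0.412, 0.566 and 1.08 CPM in the *Nf1*/*p53* lines against 0.0642, 0.0721 and 0.0782 CPM in the *Nf1*/*Cdkn2a* lines (log2 fold change -3.23 ± 0.55, adjusted p = 0.0465). *Pecam1* was also lower by the fitted value with lines apart (log2 fold change -1.29, adjusted p = 0.162), and *Cdh5* was higher (log2 fold change 1.61, adjusted p = 0.221), all at or under 1.69 CPM. All 4 Schwann markers tested were lower by the fitted value and none was called. The 4 epithelial markers ran from 2.67 to 739 CPM and from 8.26 to 611 CPM, as the keratins *Krt8* and *Krt18* differed between lines of one genotype. The part of these marker genes in the result was not tested. These libraries are bulk RNA, in which fewer cells of a type and less RNA per cell cannot be told apart.

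Members with and without an ISRE core lay on both sides of 0. Of the 19 tested members with a core in their window, 14 were lower by the fitted value and 5 higher. In 13 of them every *Nf1*/*Cdkn2a* line lay below, and in 1 (*Irgm1*) every one lay above. *Stat2* and *Ifitm3*, also among the 5, changed sign in other fits. Of the 19 tested members with a window but no core, 16 were lower and 3 higher. In 11 of them every *Nf1*/*Cdkn2a* line lay below, and in 1 (*Ifi47*) every one lay above. Over all genes tested, 51.8% were below 0, 16.6% had every *Nf1*/*Cdkn2a* line below and 14.8% had every one above. Of the members that passed the count filter through the *Nf1*/*p53* lines alone, the first set holds 5 and the second 1. The stretches shown for *Isg15* and *Irgm1* are an example, since each holds a run of overlapping cores, with log2 fold changes of -2.84 and 0.82. Of the 10 members with a GAS core, 8 were lower and 2 higher.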

How the data were processed

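RNA-seq was performed on 18 libraries from 3 cultures of each of 6 MPNST cell lines. The authors deposited raw counts, unnormalized whole reads assigned to each gene. The submitters' processing notes name CASAVA, STAR 2.5, DESeq2 1.14.1 and GRCm38 (mm10); the counting tool, its annotation and its use of strand are not given in the sources used here, and reads of a 129 strain were aligned to a C57BL/6 genome. Gene positions are from GENCODE M21 (GRCm38), matched for 34490 of 35275 identifiers.

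The counts of a line's cultures were added up, filtered with filterByExpr (minimum count 10, minimum total 15), scaled with TMM and tested with edgeR 4.0.16 (quasi-likelihood, Benjamini-Hochberg adjustment over all 15207 genes tested) in R 4.3.3, with limma 3.58.1 and DESeq2 1.42.0 as alternatives. Steps were tested on simulated data. No pair of cultures was alike within sampling noise (chi-square over its degrees of freedom 3.57 to 29.2). Cultures of a line do not measure the spread between tumors, so p-values rest on the spread between 3 lines. Depth sets a floor of 3 counts per library, or 0.139 CPM in the *Nf1*/*Cdkn2a* dKO and 0.124 CPM in the *Nf1*/*p53* dKO, and floors and intervals cover counting error only.

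The members, role groups and gene lists were chosen with earlier results of these data known. Values by line are given for called members, the highest and lowest fold change of each role group, members given as bounds, members against their group's direction, *Irf7* and the interferon receptors, and any other member may be named. The pathway list outside the members holds ligands, receptors, kinases and STATs, interferon regulatory factors and brakes. Marker lists cover leukocytes, plasmacytoid dendritic cells, endothelium, Schwann cells, epithelium and mesenchyme. Some genes of the pathway and marker lists are not reported here. Alternatives were other scaling factors, other filters, DESeq2, the 18 cultures as samples, replicate blocks, and each line left out; setting bounded members to their bound, the culture ranges, and counts without genes that passed the filter through one genotype alone, were added after seeing the data. Promoter windows are RefSeq's (GRCm38.p6). *Mx1*, *Parp14*, *Ifi204*, *Oas1b*, *Dhx58*, *Rtp4*, *Parp9*, *Ifi27*, *Mx2*, *Oas2* and *Usp18* were without one. *Iigp1* was not searched, because chromosome 18 was left out for the members, while the share over all genes kept it. Plots used Python 3.11.15 and matplotlib 3.10.9.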

Additional observations from a re-analysis of the deposited data

Results flagged for a closer look

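In 97 sets of 9 cultures of one genotype (members with over 3 counts in a culture), 2 held a culture far from the other 8. Chance flags about 1 in 20 where the 9 values are independent. Cultures grouped by line are not, so that rate does not apply to these sets. For *Oasl2* culture 1 of *Nf1*/*Cdkn2a* line 3 had 2.56 CPM, and the highest of the others in that genotype 1.40 CPM. For *Mx1* culture 2 of *Nf1*/*Cdkn2a* line 1 had 0.266 CPM and the highest of the others 0.135 CPM, values that rest on at most 5 counts.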

How the results depend on the processing

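The count of members lower in the *Nf1*/*Cdkn2a* dKO was 2 of 49 in the fit reported (1.16% of all genes called lower). It was 5 with upper-quartile factors (1.48% of all genes), 10 with raw totals (2.22%), 10 of 51 with no filter on low counts (1.136%), 4 of 39 with at least 10 counts in every line (1.05%), 29 with DESeq2 on the 6 lines, 29 of 42 with edgeR on the 18 cultures (24.7%), 37 with DESeq2 on the 18 cultures and 19 with limma-voom. With each line left out it was 0 to 0, where all genes called numbered 172, 27 and 107 without *Nf1*/*p53* lines 1, 2 and 3 and 0, 2 and 23 without *Nf1*/*Cdkn2a* lines 1, 2 and 3. Members higher went from 0 to 2 with DESeq2 on the 6 lines, 5 with edgeR and 5 with DESeq2 on the 18 cultures and 2 with limma-voom, and were 0 to 0 with a line left out. Pathway genes called went from 0 of 18 to 2 of 19 with DESeq2 on the 6 lines (11.95% of all genes called), 8 of 17 with edgeR (46.5%) and 9 of 20 with DESeq2 (39.3%) on the 18 cultures and 1 of 17 with limma-voom (16.6%), and were 0 to 0 with a line left out. The median log2 fold change of the members (-1.45) ranged from -1.96 (without *Nf1*/*Cdkn2a* line 3) to -1.19 (without *Nf1*/*p53* line 3) with a line left out, and from -1.59 to -1.10 otherwise; raw totals moved the median of all genes to -0.16. Members whose lines do not overlap were 33 of 49, and 24 of 39 with at least 10 counts in every line. The cause of these shifts was not tested, other than that the 18 cultures count as independent samples and that a stricter filter leaves fewer members.

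Line numbers and culture numbers did not pair the samples (correlations of deviations from -0.13 to -0.08 for lines and from -0.02 to 0.07 for cultures). With the line number as a replicate block, members lower were 0 and no gene of any kind was called. With the culture number as a replicate block on the 18 cultures, members lower were 28, members higher 5 and pathway genes called 7 of 17, where 43.3% of all genes were called.

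Signs turned in 4 members. *Stat2* went to -0.0144 with limma-voom and ranged from -0.48 (without *Nf1*/*Cdkn2a* line 3) to 0.54 with a line left out. *Trim25* ranged from -0.0544 (without *Nf1*/*p53* line 1) to 0.39. *Ifitm1* went to 0.19 with limma-voom and ranged from -2.0 to 1.64 (without *Nf1*/*p53* line 3). *Ifitm3* went to -0.00146 with upper-quartile factors, -0.10 with raw totals and -0.00657 with limma-voom, and ranged from -0.25 (without *Nf1*/*p53* line 2) to 0.39, below 0 also without *Nf1*/*Cdkn2a* line 2 (-0.07) and line 3 (-0.24). At this depth members under about 1 CPM rest on few counts in the *Nf1*/*Cdkn2a* lines.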
